A study of Gallus gallus with 4 samples.

Results

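Condensin is the ring-shaped protein complex that folds chromatin into compact chromosomes before cell division. Its SMC subunits form the ring and use ATP to move and loop DNA, and its kleisin subunit closes the ring. SMC2 is an SMC subunit of both condensin I and condensin II, whereas CAP-H is the kleisin of condensin I alone, so a map of SMC2 can hold sites of either complex and a map of CAP-H those of condensin I. The sites described here are the condensin peaks on chicken chromosomes 17 and 19, a pair of microchromosomes, the small and gene-dense chromosomes of birds. They were taken by chromosome name alone. Together the chromosomes held 578 of the 10843 listed peaks, of which 327 of 6474 were SMC2 peaks and 251 of 4369 were CAP-H peaks.

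The peaks come from DT40, a chicken B cell lymphoma line. In one cell population an SMC2 transgene with an SBP tag replaced SMC2, and in the other an SBP-tagged CAP-H transgene replaced CAP-H; in both, 2 ng/ml doxycycline kept the untagged protein off and 500 ng/ml nocodazole held the cells in mitosis. Tagged protein and the DNA crosslinked to it with 1% formaldehyde were recovered on streptavidin beads, and the DNA was sequenced as single reads of 50 bp. The labels list 4 libraries, 1 pull-down and 1 input per subunit, and each peak list belongs to 1 pull-down. There was no replicate and no test across samples. All intervals below are 95% intervals of counting error only and treat peaks as independent, which neighbouring peaks are not. The read depth behind a peak is unknown. The inputs were not analysed here, so the number of copies of each chromosome in the cells was not measured. A peak is the interval that the authors' caller reported, in the chicken build galGal4. Positions are counted from 1. In the later assembly GRCg7b chromosome 17 carries ABL1, NOTCH1 and TSC1 and chromosome 19 carries NF1, CLTC and TBX2. No annotation of galGal4 was used here, so no peak is assigned to a gene.

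Chromosome 19 carried more condensin peaks than chromosome 17 although the chromosomes are of nearly the same length. The highest coordinate in either list, taken as the length, was 10449442 on chromosome 17 and 9956927 on chromosome 19. Chromosome 17 had 126 SMC2 and 93 CAP-H peaks, and chromosome 19 had 201 and 158. The density of SMC2 peaks was 12.1 per Mb (exact Poisson interval 10.04 to 14.4) on chromosome 17 and 20.2 per Mb (17.5 to 23.2) on chromosome 19, a ratio of 1.67 (exact conditional interval 1.33 to 2.11). CAP-H peaks had densities of 8.90 (7.18 to 10.9) and 15.9 (13.5 to 18.5) per Mb on the same chromosomes, a ratio of 1.78 (1.37 to 2.33). Both lists were thus denser on chromosome 19, by a similar factor. The peaks covered 1.36% of chromosome 17 in the SMC2 list and 1.87% in the CAP-H list, and 2.86% and 3.36% of chromosome 19.

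The other microchromosomes, 16 chromosomes from 11 to 28, had 18.9 SMC2 peaks (18.2 to 19.6) and 11.1 CAP-H peaks (10.6 to 11.7) per Mb. Chromosome 17 was below them in both lists, at 0.638 times (0.529 to 0.762) their SMC2 density and 0.798 times (0.641 to 0.984) their CAP-H density. Chromosome 19 had 1.42 times (1.20 to 1.68) their CAP-H density, while its SMC2 density, at 1.07 times (0.920 to 1.23), had an interval that includes 1. These ratios are to a pool of unlike chromosomes. Single microchromosomes ranged from 5.99 to 78.6 SMC2 and from 4.88 to 40.3 CAP-H peaks per Mb. Counted from the lowest of 18, chromosome 17 had rank 4 in both lists. Chromosome 19 had rank 10 for SMC2 and rank 13 for CAP-H, so neither was at an extreme. The ratio of SMC2 to CAP-H peaks on chromosome 17 was 1.35, with an interval of 1.03 to 1.79. Chromosome 19 had a ratio of 1.27, with 1.03 to 1.58. Both intervals include the 1.48 of the whole lists. The other microchromosomes had 1.70 (1.60 to 1.80), a range that the interval of chromosome 17 overlaps and that of chromosome 19 does not. Chromosome 18, which is close to both in size, had 1.80 (1.45 to 2.24), and chromosome 15 had 1.36 (1.09 to 1.70). The ratio depends on the threshold of the SMC2 list. When only the SMC2 peaks in the upper 50% by score were kept, it was 0.516 on chromosome 17 and 0.728 on chromosome 19. That filter removes SMC2 peaks alone, so a fall was fixed in advance and tells nothing about the balance of the subunits.

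**Figure D1:**
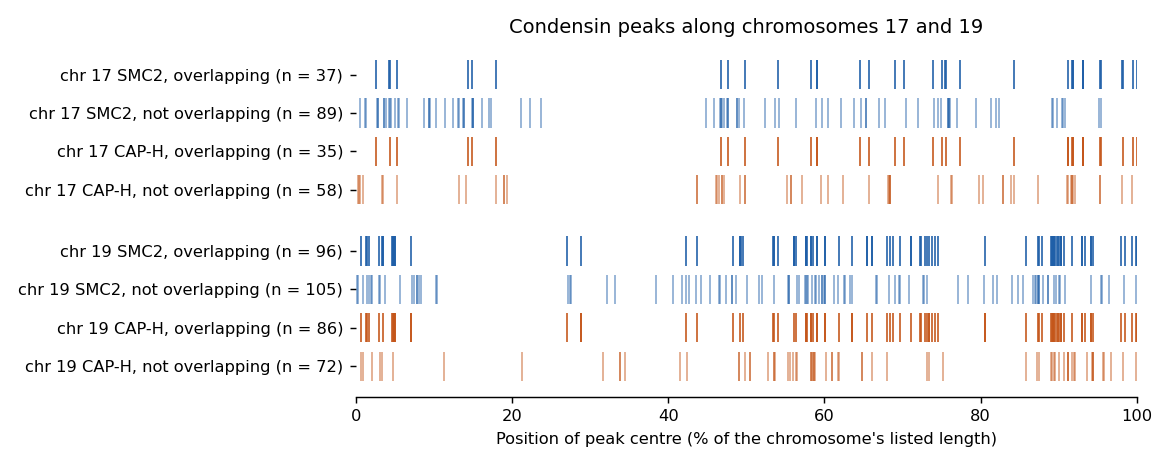
Centres of SMC2 peaks (blue) and CAP-H peaks (orange) along chromosomes 17 and 19, as a percentage of each chromosome's listed length, in separate rows for peaks that overlap a peak of the other list and peaks that do not. Each line is 1 peak; the wide empty stretch of chromosome 17 and the sparse stretch of chromosome 19 hold few or no peaks in all rows.

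Peaks of both lists left a wide part of each chromosome empty or nearly so. On chromosome 17 no peak of either list lay between 2475782 and 4566100, a stretch of 2090 kb. The next stretches without a peak were far shorter, at 318 kb from 8811147 and 274 kb from 9970959. Among 18 microchromosomes this was the second longest empty stretch, after 2516 kb on chromosome 11. The CAP-H list was empty over a longer stretch there, 2540 kb from 2026358, in which 3 SMC2 peaks fell. On chromosome 19 the sparse part lay between 1 and 4 Mb. It was broken up by a few peaks into stretches of 984 kb from 1128996, 583 kb from 2114118 and 401 kb from 3432153. Across 1-Mb segments 2 to 4 of chromosome 19 there were 10 SMC2 and 9 CAP-H peaks, against 139 and 99 in segments 5 to 9. What the galGal4 sequence holds in these stretches was not analysed here. Without its empty stretch chromosome 17 had 15.1 SMC2 and 11.1 CAP-H peaks per Mb, and chromosome 19 without its longest one had 22.4 and 17.6, measured after the data were seen.

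By 1-Mb segment, chromosome 17 had most SMC2 peaks at its start, with 23 in the first segment and 19 in the second. It had most CAP-H peaks near its far side, with 20 in the tenth segment. Chromosome 19 had 3 rich parts: the first segment with 32 SMC2 and 20 CAP-H peaks, the sixth with 40 and 34, and the ninth with 40 and 25. In windows of 100 kb, 36 of 105 on chromosome 17 had no peak, 35 had both lists, 23 had only SMC2 and 11 only CAP-H. On chromosome 19, 27 of 100 windows had no peak, 47 had both, 17 only SMC2 and 9 only CAP-H. The counts of the lists per window had a Spearman correlation of 0.50 over the 105 windows of chromosome 17 and 0.71 over the 100 windows of chromosome 19. These values describe windows that share libraries and base composition with their neighbours. The 16 richest windows of each chromosome held at least 50% of its peaks.

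**Figure D2:**
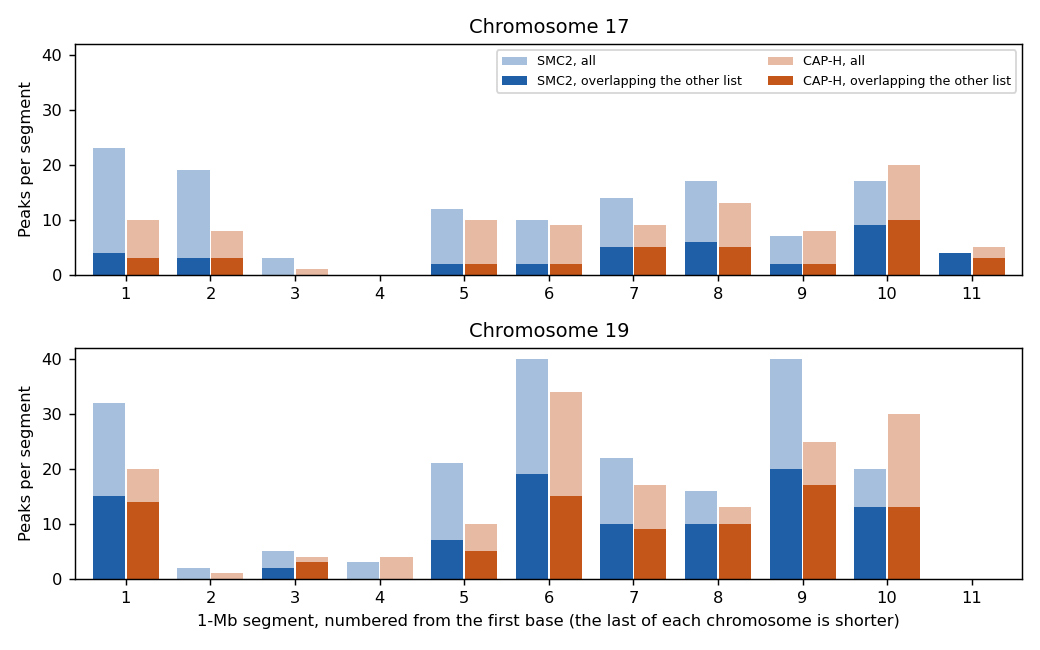
Number of SMC2 (blue) and CAP-H (orange) peaks per 1-Mb segment, numbered from the first base; the dark part of each bar counts peaks that overlap the other list. Segment 4 of chromosome 17 is empty, and segments 6 and 9 of chromosome 19 reach 40 SMC2 peaks each.

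Clusters were taken as runs of 5 or more peaks of both lists together with no gap over 10 kb. Chromosome 17 had 9 clusters with 55 of its 219 peaks (25.1%), on 1.24% of its length. Chromosome 19 had 17 clusters with 147 of its 359 peaks (40.9%), on 4.23% of its length. All 9 and all 17 held peaks of both lists. In the share of peaks that lay in clusters, chromosome 17 had rank 16 and chromosome 19 rank 10 of 18 microchromosomes, counted from the highest.

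The largest cluster of chromosome 17 held 9 peaks, 3 SMC2 and 6 CAP-H, from 9582287 to 9601383. The 100-kb window around its start, from 9500001 to 9600000, was also the richest of the chromosome, with 4 SMC2 and 11 CAP-H peaks. The next clusters, of 7 peaks each, lay from 4881742 to 4904307, made of 4 SMC2 and 3 CAP-H peaks, and from 9956732 to 9970958, made of 3 and 4. The other rich windows were those from 4800001 with 10 peaks, and from 1500001, 4900001 and 9900001 with 8 each. The 3 largest clusters of chromosome 17 thus lay shortly beyond its empty stretch or near its far side. The rich window from 1500001 lay before that stretch.

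On chromosome 19 the largest cluster held 20 peaks, 10 of each list, from 8864985 to 8923699. It was followed by a cluster of 16, with 6 SMC2 and 10 CAP-H peaks, from 5797714 to 5862152, and by one of 13, with 6 and 7, from 466487 to 504384. The richest windows were those from 8900001 with 13 SMC2 and 9 CAP-H peaks, from 5800001 with 7 and 11, and from 8800001 with 8 and 7. The largest cluster had 2 clusters of 8 and 7 peaks close behind it. Together these 3 ran from 8864985 to 8997178, which is 1.33% of the length, with 19 SMC2 and 16 CAP-H peaks, 9.75% of all peaks of the chromosome. The stretch was singled out after its values were seen.

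SMC2 and CAP-H coincided more often on chromosome 19 than on chromosome 17. A peak was called shared where it overlapped a peak of the other list by at least 1 bp. On chromosome 17, 37 of 126 SMC2 peaks were shared, or 29.4% (exact binomial interval 21.6 to 38.1), and on chromosome 19, 96 of 201, or 47.8% (40.7 to 54.9). Over the whole SMC2 list 31.0% were shared, so chromosome 17 was near the background and chromosome 19 above it. For CAP-H, 35 of 93 peaks were shared on chromosome 17, or 37.6% (27.8 to 48.3), and 86 of 158 on chromosome 19, or 54.4% (46.3 to 62.4), against 42.4% over the whole CAP-H list. The odds of being shared were 2.19 times (exact interval 1.34 to 3.64) as high on chromosome 19 as on chromosome 17 for SMC2 peaks and 1.97 times (1.14 to 3.46) for CAP-H peaks. When the overlap had to cover at least 50% of each of the overlapping peaks, 20 peaks of each list were shared on chromosome 17 and 52 on chromosome 19. These were 15.9% and 25.9% of SMC2 peaks, against 17.5% over the list, and 21.5% and 32.9% of CAP-H peaks, against 26.0%. For each list the intervals of the chromosomes overlapped under that rule.

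The higher density of chromosome 19 lay mostly in shared peaks. Shared SMC2 peaks numbered 3.54 per Mb on chromosome 17 and 9.64 on chromosome 19, a ratio of 2.72 (1.85 to 4.09). Unshared SMC2 peaks numbered 8.52 and 10.5 per Mb, a ratio of 1.24 (0.925 to 1.66), whose interval includes 1. For CAP-H the ratio was 2.58 (1.72 to 3.94) for shared and 1.30 (0.909 to 1.87) for unshared peaks. More peaks on a chromosome also give more overlaps by position alone, and the part of that in the shares was not tested.

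Against the other microchromosomes pooled, the 2 chromosomes stood apart in different lists by share, but in both lists by density of shared peaks. Chromosome 17 had 0.537 times (0.376 to 0.745) their density of shared SMC2 peaks and 0.555 times (0.384 to 0.778) that of shared CAP-H peaks. On chromosome 19 these were 1.46 times (1.17 to 1.80) and 1.43 times (1.13 to 1.79). Against chromosome 18 alone they were 1.20 times (0.891 to 1.62) and 1.15 times (0.843 to 1.58) on chromosome 19, with intervals that include 1. Against chromosome 15 they were 1.79 times (1.30 to 2.48) and 1.63 times (1.17 to 2.28). Chromosome 17 had 0.659 times (0.429 to 0.997) and 0.632 times (0.408 to 0.965) the densities of chromosome 15. It had 0.441 times (0.292 to 0.653) and 0.447 times (0.292 to 0.670) those of chromosome 18. A share also depends on the number of peaks in its own list. On the other microchromosomes 34.9% (33.1 to 36.6) of SMC2 and 54.1% (51.7 to 56.5) of CAP-H peaks were shared. Chromosome 19 was above them in SMC2, with odds of sharing 1.71 times (1.27 to 2.30) as high, and had the highest SMC2 share of the 18 microchromosomes. Its odds for CAP-H were 1.01 times (0.721 to 1.43) theirs. Chromosome 17 was below them in CAP-H, with odds 0.512 times (0.323 to 0.802) as high. Its CAP-H share was the lowest but one, after 34.5% on chromosome 26. For SMC2 its odds were 0.777 times (0.510 to 1.16), an interval that includes 1. Chromosome 15 had shares of 34.5% and 46.2% and chromosome 18 of 37.3% and 62.7%. Against chromosome 15 the odds of chromosome 17 were 0.704 times (0.398 to 1.23) as high for CAP-H and 0.789 times (0.471 to 1.31) for SMC2. Both of these intervals include 1. Against chromosome 18 its odds were 0.361 times (0.200 to 0.643) as high for CAP-H and 0.698 times (0.425 to 1.13) for SMC2.

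**Figure D3:**
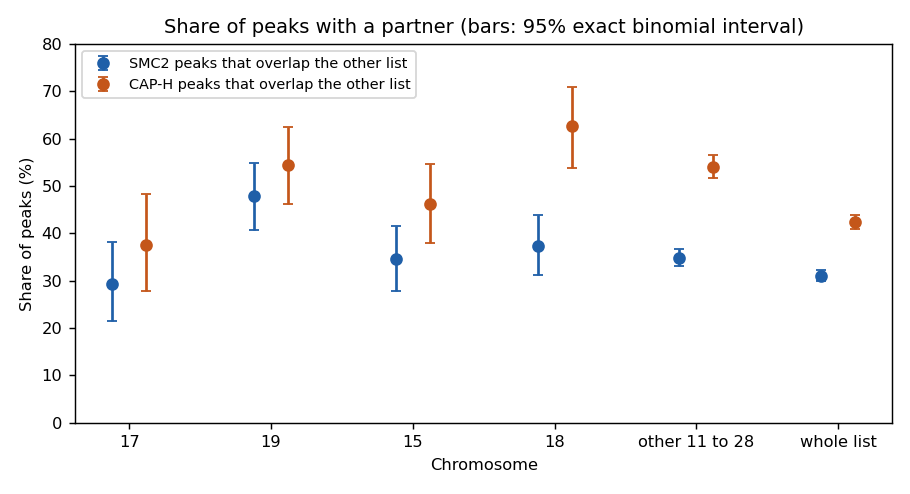
Share of SMC2 (blue) and CAP-H (orange) peaks that overlap the other list by at least 1 bp, for chromosomes 17, 19, 15 and 18, for the other 16 microchromosomes and for the whole lists, with 95% exact binomial intervals. Chromosome 19 is at 47.8% and 54.4%, chromosome 17 at 29.4% and 37.6%.

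The share of SMC2 peaks with a partner differed between the sides of chromosome 17. The first 2 segments had 7 shared of 42 SMC2 peaks (16.7%, interval 6.97 to 31.4) and the last 2 segments had 13 of 21 (61.9%, 38.4 to 81.9). Its CAP-H shares there, 33.3% (13.3 to 59.0) and 52.0% (31.3 to 72.2), had overlapping intervals. Segments 5 to 9 of chromosome 17 had 17 shared of 60 SMC2 peaks (28.3%, 17.5 to 41.4), an interval that overlaps those of both sides. The sides also differed in median SMC2 score, at 64.2 in the first 2 segments and 91.6 in the last 2. The part of score in these shares was not tested. On chromosome 19 the first segment had 15 shared of 32 SMC2 peaks (46.9%, 29.1 to 65.3), segments 5 to 9 had 66 of 139 (47.5%, 39.0 to 56.1) and segment 10 had 13 of 20 (65.0%, 40.8 to 84.6). Its CAP-H shares were 70.0% (45.7 to 88.1), 56.6% (46.2 to 66.5) and 43.3% (25.5 to 62.6) in the same stretches. The sparse segments 2 to 4 had 2 shared of 10 SMC2 peaks (interval 2.52 to 55.6) and 3 shared of 9 CAP-H peaks (7.49 to 70.1). These were the lowest shares of both lists among the stretches of chromosome 19. All intervals of each list on chromosome 19 overlap, so no direction along the chromosome is read from them. These stretches were set after their values were seen. In clusters, 53.3% (34.3 to 71.7) of the SMC2 peaks of chromosome 17 and 69.3% (57.6 to 79.5) of those of chromosome 19 were shared, against 21.9% (14.1 to 31.5) and 34.9% (26.6 to 43.9) outside. For CAP-H the shares in and outside clusters were 64.0% and 27.9% on chromosome 17, but 55.6% and 53.5% on chromosome 19. The cluster rule favours shared peaks, because overlapping peaks have no gap between them.

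Between the 2 chromosomes, stretches with one list alone were longest for SMC2 on chromosome 17. In order of their centres, the 219 peaks of chromosome 17 fell into 105 runs of one list and the 359 peaks of chromosome 19 into 216. The mean was 2.09 peaks per run on chromosome 17, rank 3 of 18 microchromosomes from the highest, and 1.66 on chromosome 19, rank 17. The list with more peaks, SMC2 on both chromosomes, also has longer runs by number alone. The part of peak number in the run lengths was not tested. The longest run of the 2 chromosomes was of 12 SMC2 peaks on chromosome 17, from 560791 to 1380287. None of them was shared, and they lay in a stretch of 830 kb with no CAP-H peak. Some other microchromosomes had longer SMC2 runs, of 21 peaks on chromosome 18, 19 on chromosome 24 and 15 each on chromosomes 20 and 27. The 12 peaks on chromosome 17 were weak, with a median score of 54.1, a highest score of 90.56 and widths of 609 to 1103 bp. The score is the authors' own value for each SMC2 peak, from which only an order within that list is taken here. The next SMC2 run of chromosome 17 was of 7 peaks, from 1559807 to 1810581. It was followed by runs of 6 peaks each from 7890972 to 7953545 and from 9317189 to 9484727. The median scores of these runs were 65.8, 65.4 and 75.8 in the order given, against 74.5 over the whole SMC2 list. Their highest score was 203.43, in the run from 1559807. The runs from 1559807 and 7890972 each had 1 shared member, which is possible because runs follow the order of peak centres. The run from 9317189 lay in 388 kb without a CAP-H peak and had no shared member. When only the SMC2 peaks in the upper 50% by score were kept, the longest SMC2 run on chromosome 17 was of 3 peaks. That filter removes SMC2 peaks alone and cannot lengthen an SMC2 run, so nothing is read from the fall.

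CAP-H runs were shorter, in a list with fewer peaks on both chromosomes. On chromosome 17 there were 2 of 6 peaks, from 7126623 to 7210300 and from 9524170 to 9588524, and 1 of 4 from 1872051 to 2026357. The latter ended where the wide stretch without CAP-H begins. The second run lay in the richest window of the chromosome and had 2 shared members at its edges. The runs from 7126623 and from 1872051 had 1 shared member each. On chromosome 19 no CAP-H run exceeded 4 peaks, and all 3 of that length lay close together, from 9081049 to 9130990, from 9132858 to 9255793 and from 9390333 to 9403013. Each of them had 1 shared member. SMC2 runs on chromosome 19 reached 8 peaks, from 713893 to 1043187, with no shared member and a median score of 58.6, and from 4344935 to 4799232, with 1 shared member and a median score of 70.5. A run of 7 from 5883163 to 5980274 had 2 shared members and a median score of 105 over all its members. Its 5 unshared members had a median score of 73.33 with a range of 67.40 to 198.61.

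Most unshared peaks lay more than 1 kb from the other list. The median distance from an unshared SMC2 peak to the nearest CAP-H peak was 26.4 kb (quartiles 8.84 to 75.5) on chromosome 17 and 17.4 kb (3.25 to 52.0) on chromosome 19. Within 1 kb lay 4 of 89 and 12 of 105. Unshared CAP-H peaks were nearer to SMC2, with a median of 20.6 kb (2.94 to 57.2) on chromosome 17 and 5.90 kb (1.20 to 26.4) on chromosome 19. Of these, 6 of 58 and 16 of 72 lay within 1 kb. Over 100 kb from the other list were 19 unshared SMC2 and 7 unshared CAP-H peaks on chromosome 17, and 15 and 2 on chromosome 19. More peaks in a list also bring its nearest peak closer, and the part of peak number in these distances was not tested.

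SMC2 peaks on chromosome 17 were narrow and weak. Their median width was 931 bp (interval 873 to 970) and their median score 65.0 (62.2 to 71.7), the lowest of 18 microchromosomes in both. On chromosome 19 the medians were 1162 bp (1083 to 1243) and 79.6 (74.8 to 88.8), near those of the other microchromosomes at 1183 bp and 79.0. A score of at least 100 was reached by 24 of 126 SMC2 peaks (19.05%) on chromosome 17 and 75 of 201 (37.3%) on chromosome 19, against 28.9% over the list. CAP-H peaks had median widths of 1441 bp (1315 to 1771) on chromosome 17 and 1444.5 bp (1301 to 1702) on chromosome 19, with intervals that overlap, and 1518 bp on the other microchromosomes.

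Shared peaks were the wider ones on both chromosomes. Shared SMC2 peaks had a median width of 1107 bp against 873 bp for unshared on chromosome 17, and 1426.5 bp against 942 bp on chromosome 19. Shared CAP-H peaks had medians of 2379 bp against 1325.5 bp, and 2083 bp against 1103.5 bp. Over the whole lists the medians were 1458 against 1030 bp for SMC2 and 1858 against 1177 bp for CAP-H. A wide peak has more room to overlap another, and the part of width alone was not tested. In the widest of 3 equal groups of CAP-H peaks by width, 20 of 31 were shared on chromosome 17 and 40 of 53 on chromosome 19, and in the narrowest 6 of 31 and 15 of 53. The whole list was not divided into such groups. Of CAP-H peaks over 2 kb, 20 of 29 were shared on chromosome 17 and 44 of 58 on chromosome 19. Over the whole CAP-H list 836 of 1264 such peaks were shared, and on the other microchromosomes 454 of 588.

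**Figure D4:**
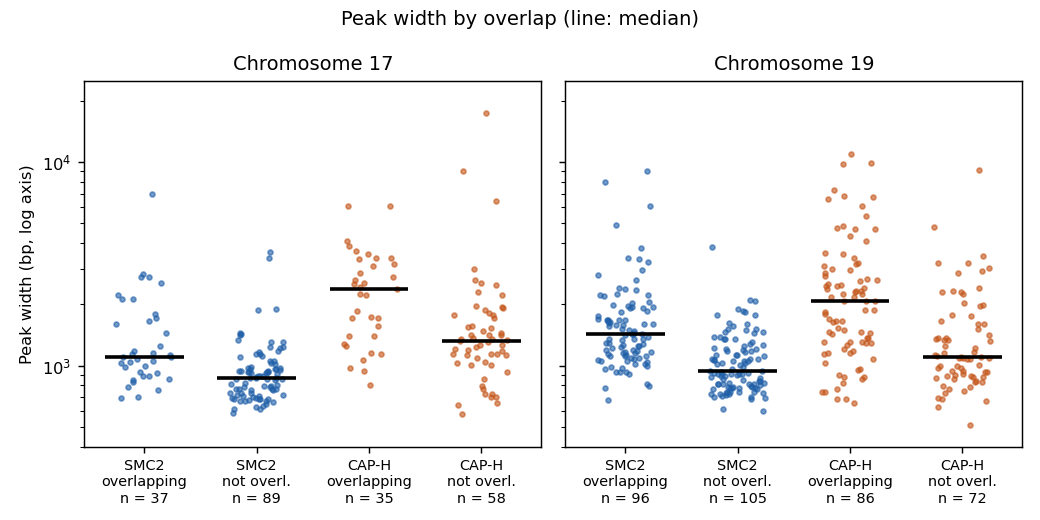
Width of every peak on chromosomes 17 and 19 on a log axis, by list and by overlap with the other list, with the median as a black line. Shared peaks have the higher median in both lists, and the widest CAP-H peak of chromosome 17, of 17463 bp, is among the unshared.

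Shared SMC2 peaks also had higher scores. The median score was 99.1 for shared and 62.2 for unshared SMC2 peaks on chromosome 17, and 115 and 66.8 on chromosome 19. Over the whole list the medians were 108 and 68.0. Among peaks with a score of at least 100, 18 of 24 were shared (75%, 53.3 to 90.2) on chromosome 17 and 58 of 75 (77.3%, 66.2 to 86.2) on chromosome 19, against 58.8% over the whole list and 61.3% (58.1 to 64.4) on the other microchromosomes. The interval of chromosome 19 lies above both of these shares and that of chromosome 17 includes them. Below 100 the shares were 19 of 102 (18.6%, 11.6 to 27.6) and 38 of 126 (30.2%, 22.3 to 39.0), with intervals that overlap, against 19.8% over the whole list. The order of the chromosomes was not the same in every class. At scores of 60 to 80, 6 of 42 (14.3%, 5.43 to 28.5) and 23 of 64 (35.9%, 24.3 to 48.9) were shared, and under 60, 7 of 42 (16.7%, 6.97 to 31.4) and 3 of 38 (7.89%, 1.66 to 21.4), with overlapping intervals in both classes. From 200 on, 7 of 8 (47.3 to 99.7) were shared on chromosome 17 and 18 of 18 (81.5 to 100) on chromosome 19. Over the whole list the shares were 18.5% at 60 to 80, 14.2% under 60 and 83.2% from 200 on. On the other microchromosomes they were 18.7%, 17.3% and 88.8%. The intervals of chromosome 17 include all of these. Those of chromosome 19 do so except at 60 to 80, where its interval lies above them.

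**Figure D5:**
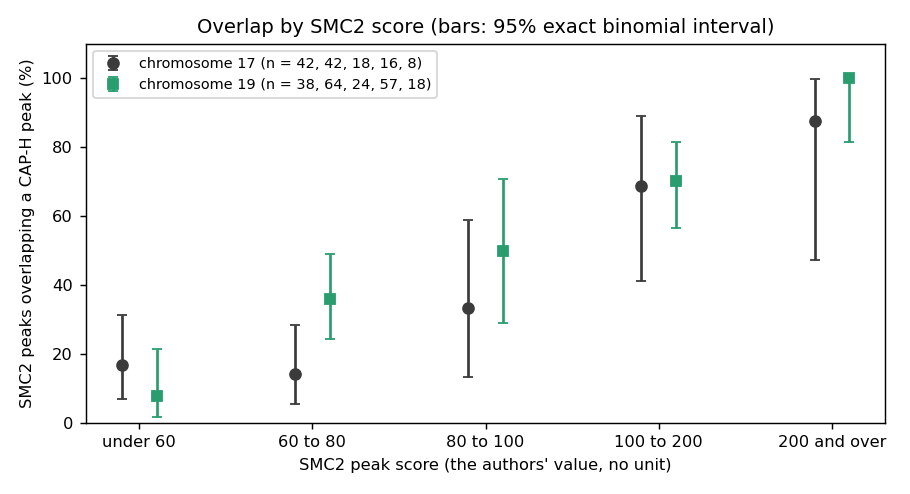
Share of SMC2 peaks that overlap a CAP-H peak, in 5 classes of the authors' score, on chromosome 17 (circles) and chromosome 19 (squares), with 95% exact binomial intervals. The share is 16.7% and 7.89% under a score of 60 and 87.5% and 100% from 200 on.

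The strongest SMC2 peak of chromosome 17 was also its widest, with a score of 3100 and 6928 bp, from 10394486 to 10401413. It enclosed a CAP-H peak of 6054 bp and ended 48.0 kb before the highest listed coordinate. A score of 3100 was also the highest on chromosome 18 and over the whole list. Whether it is an upper limit of the score is not stated in the sources. The next by score lay on the other side, from 60683 to 64306 with a score of 443.65 and a width of 3624 bp, and overlapped no CAP-H peak. The peaks after it, at 9725324 to 9727537 (443.29), 548572 to 551294 (287.19) and 9727857 to 9729565 (271.97), were each shared. Of the 5 strongest peaks, 1 was therefore without a partner.

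The start of chromosome 17 held wide peaks without a partner. Its widest CAP-H peaks were the first 3 of the chromosome, from 16418 to 33880 (17463 bp), from 34433 to 43453 (9021 bp) and from 48350 to 54777 (6428 bp), none of which overlapped an SMC2 peak. The SMC2 peak with a score of 443.65 began 5.91 kb after the last of them. Among the 2055 unshared SMC2 peaks of the 18 microchromosomes it had the second highest score, and the next unshared one on chromosome 17 had 150.68. On all of chromosome 17, 58 of 93 CAP-H and 89 of 126 SMC2 peaks were unshared, against 2517 of 4369 and 4465 of 6474 over the whole lists. Its shares with a partner, 37.6% and 29.4%, had intervals that include the 42.4% and 31.0% of the whole lists. In the first 200 kb, a stretch singled out after its values were seen, there were 4 CAP-H and 3 SMC2 peaks, and none was shared. Among these was the next widest SMC2 peak of the chromosome, from 117183 to 120559 (3377 bp). The remaining peaks among the 5 widest were all shared: SMC2 from 9594281 to 9597092 (2812 bp) and from 1559807 to 1562544 (2738 bp), and CAP-H from 9595303 to 9601383 (6081 bp) and from 10394802 to 10400855 (6054 bp). At the far side the last peaks coincided, SMC2 from 10448203 to 10449031 with a score of 53.78 and CAP-H from 10448166 to 10449442.

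On chromosome 19 all of the 5 strongest SMC2 peaks were shared. The strongest lay near the far side, from 9943627 to 9949691 with a score of 2455.49 and a width of 6065 bp, on a CAP-H peak of 6114 bp. The last SMC2 peak of the chromosome, from 9954686 to 9956877, had a score of 1027.51 and overlapped the last CAP-H peak, from 9954843 to 9956927. The others were at 491707 to 500742 (1427.13), the widest SMC2 peak with 9036 bp, at 4805967 to 4813940 (1042.15), with 7974 bp, and at 169370 to 171747 (807.71). Of the 5 widest SMC2 peaks 1 had no partner, from 29527 to 33344 (3818 bp), with a score of 82.23. The first SMC2 peak, from 21779 to 23237, had none either, while the first CAP-H peak, from 65539 to 67195, did.

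The 3 widest CAP-H peaks of chromosome 19 each overlapped SMC2 peaks far narrower than themselves. The widest, of 10969 bp from 8983641 to 8994609, overlapped 3 SMC2 peaks of at most 3377 bp. Those from 8882831 to 8892747 (9917 bp) and from 8903779 to 8913532 (9754 bp) overlapped 1 and 2 SMC2 peaks of at most 1593 and 1296 bp. All 3 lay in the dense stretch that begins at 8864985. Next in width, the peak from 9378998 to 9388145 (9148 bp), overlapped none, and the one after it, from 494084 to 501413 (7330 bp), lay on the widest SMC2 peak. On chromosome 19, 13 of 158 CAP-H peaks had more than 1 SMC2 partner, and on chromosome 17, 4 of 93. Over the whole CAP-H list 242 of 4369 did. SMC2 peaks with more than 1 CAP-H partner numbered 7 of 201 and 2 of 126, against 120 of 6474 over the whole SMC2 list.

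Within overlapping pairs the CAP-H peak was usually the wider. It was wider in 35 of 39 pairs on chromosome 17 and 74 of 103 on chromosome 19, with a median CAP-H width of 1.56 and 1.37 times the SMC2 width. A peak with more than 1 partner was counted once with each, so the pairs are not independent and wide peaks can count more than once. Among all peaks CAP-H also had the higher median width, 1441 against 931 bp on chromosome 17 and 1444.5 against 1162 bp on chromosome 19. Over the whole lists the medians were 1380 and 1126 bp, so the difference is not particular to pairs. The SMC2 peak lay wholly inside the CAP-H peak in 15 and 34 pairs, and the reverse held in 2 and 7. The centres were a median of 436 bp and 494 bp apart, without a side: the CAP-H centre had the higher coordinate in 19 of 39 and 50 of 103 pairs. Of the bases under SMC2 peaks, 34.1% lay under a CAP-H peak on chromosome 17 and 51.0% on chromosome 19. The pairs with most shared bases were the strongest peak of chromosome 17 with 6054 bp, and on chromosome 19 those at 4805967 with 6834 bp, at 491707 with 6659 bp and at 9943627 with 6027 bp. On chromosome 17 the next were at 1559807 with 2738 bp and at 548572 with 2723 bp.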

How the data were processed

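The authors deposited a peak list for each pull-down, without a header. The aligner BWA and the build galGal4 are named, without version or role, per the submitters' processing notes; peaks bear names of the caller MACS in the deposited files, and of that caller no version, control or threshold is given in the sources. A score per peak, deposited by the authors, is held by the SMC2 list alone. Starts of 0 occur in both lists, so they were read as counted from 0. The authors' profiles around start sites hold no value per chromosome and were not used here.

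All peaks whose chromosome was 17 or 19 were kept. Overlap, clusters, runs, windows of 100 kb and gaps were computed on the peak intervals, with window and segment membership by peak centre. Densities have exact Poisson, shares exact Clopper-Pearson, ratios of counts exact conditional and medians order-statistic intervals. The tools were pandas 2.3.3, numpy 2.4.6 and scipy 1.17.1 under Python 3.11.15, with matplotlib 3.10.9 for figures. The overlap, cluster and run steps were tested on simulated data. Named regions were the 5 strongest and widest peaks, the first and last peaks, the 3 largest clusters, the 3 richest windows with ties, and the 3 longest runs, gaps and pair overlaps of each chromosome. The members, the comparison chromosomes and these rules were chosen with earlier results of these data known.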

Additional observations from a re-analysis of the deposited data

How the results depend on the processing

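Of 60 alternative values for 22 results, 26 stayed within the interval of the value reported, or within 1.5 times a count, 32 moved further and 2 reversed. The 2 were the ratio of SMC2 to CAP-H peaks among SMC2 peaks in the upper 50% by score (at or above 74.5), at 0.516 on chromosome 17 and 0.728 on chromosome 19. A fall was fixed in advance there, because the filter removes SMC2 peaks alone. With it the SMC2 density was 4.59 and 11.5 per Mb, the SMC2 share with a partner 50.0% and 65.2%, the CAP-H share 25.8% and 43.7%, the longest SMC2 run 3 and 4 peaks and the longest CAP-H run 10 and 8. Of these, only the SMC2 share could have moved either way. The filter cannot raise the SMC2 density, the CAP-H share or the SMC2 run, and it cannot shorten the CAP-H run. With scores of at least 100 the SMC2 density was 2.30 and 7.53 per Mb and the share 75% and 77.3%, so the gap in SMC2 share between the chromosomes was small there. With an overlap of 50% of both peaks the SMC2 shares were 15.9% and 25.9% and the CAP-H shares 21.5% and 32.9%. With 500 bp added to each side of a peak the CAP-H share of chromosome 19 was 64.6%. CAP-H peaks of at least the median width of the list, 1380 bp, were shared at 51.9% and 71.6%. The share of such peaks over the whole list was not computed. With peaks closer than 1 kb merged, the CAP-H density was 6.79 and 12.3 per Mb and the median CAP-H width on chromosome 19 was 2056 bp. With gaps of at most 20 kb chromosome 17 had 14 clusters. Windows without a peak were 53.1% and 45.0% at 50 kb and 18.9% and 14.0% at 200 kb. With alternatives chosen after the data were seen, chromosome 17 without its empty stretch had 15.1 SMC2 and 11.1 CAP-H peaks per Mb, and SMC2 peaks of chromosome 19 outside clusters were shared at 34.9%. Each density and each share was higher on chromosome 19 than on chromosome 17 under every alternative for which it was computed; CAP-H shares were not computed with scores of at least 100, nor SMC2 shares with the filter on CAP-H width. With 1 library per subunit and unknown depth, a peak missing from a list may be a site below that list's threshold. No paired analysis was possible because each group has 1 library.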

Other observations

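The ratio of SMC2 to CAP-H peaks differed between stretches of both chromosomes, which were picked after their values were seen. With 1 library per subunit and unknown depth, these counts do not measure the balance of the subunits. The first 2 segments of chromosome 17 had 42 SMC2 and 18 CAP-H peaks, or 2.33 SMC2 peaks per CAP-H peak (interval 1.31 to 4.31). The rest of the chromosome had 84 and 75, or 1.12 (0.811 to 1.55), and its last 2 segments had 21 and 25, or 0.840 (0.447 to 1.56). On chromosome 19 segment 10 was the only one beside the sparse segment 4 with more CAP-H than SMC2 peaks, at 20 SMC2 and 30 CAP-H, or 0.667 (0.359 to 1.21). Before segment 10 the ratio was 1.41 (1.12 to 1.79). The intervals overlap between the start and the rest of chromosome 17, and between segment 10 and the rest of chromosome 19. The SMC2 peaks of the last 2 segments of chromosome 17 had a median score of 91.6, against 64.2 in the first 2. In segment 10 of chromosome 19 the median was 72.8, below the 79.95 before it. The end stretches with more CAP-H than SMC2 peaks were thus not alike in median SMC2 score. The intervals of their ratios include 1.

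The last Mb of chromosome 17, up to its highest listed coordinate, held many of its strong SMC2 peaks. This stretch was set after the strongest peaks were known, and no interval was computed for its counts. Of the 24 SMC2 peaks on chromosome 17 with a score of at least 100, 9 lay there, while 18 of all 126 SMC2 peaks did. On chromosome 19 the last Mb held 12 of 75 such peaks and 27 of all 201. With a score of at least 200 it held 4 of 8 peaks on chromosome 17 and 6 of 18 on chromosome 19.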
